A study of Mus musculus with 6 samples.

Results

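The genes described here encode the nuclear subunits of oxidative phosphorylation and the Ndufaf assembly factors of complex I, measured in J774A.1 cells, a mouse macrophage line of Balb/c origin. Members were chosen by name: array features paired with exactly 1 gene symbol, where the symbol begins with Nduf, Uqcr, Atp5, Cox4i, Cox5, Cox6, Cox7 or Cox8, or is Sdha, Sdhb, Sdhc, Sdhd or Cyc1. Pseudogene symbols were left out, and the feature with the highest mean signal stood for each gene. The rule gave 88 of the 22180 genes measured. Complex I had 32 of them, its Ndufaf assembly factors 8, complex II 4, complex III 8, complex IV 19 and complex V 17. Ndufa4 and Ndufa4l2 were counted in complex IV, where the protein of Ndufa4 resides, although their symbols place them in complex I. The naming rule used no measured difference between the groups, but it was set with earlier results of these data known.

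The comparison was of 3 NPFF arrays with 3 control arrays. The NPFF cells received neuropeptide FF (NPFF), an amidated peptide that acts on G-protein-coupled receptors, at 1 nM in phosphate-buffered saline for 18 h. The control cells received the saline vehicle for 18 h, although the sample titles call them non-treated. All cells were of this established line, grown in RPMI-1640 with 10% fetal calf serum to 80% confluence, and 500 ng of TRIZOL-extracted RNA from each sample was labelled with biotin and hybridized to an Affymetrix whole-transcript array. The labels call the samples biological replicates without saying whether they came from separate cultures or days, so the spread measured here may be partly technical.

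Oxidative phosphorylation couples the oxidation of NADH and succinate to the making of ATP in the inner mitochondrial membrane. Complexes I and II pass electrons to coenzyme Q, complex III passes them on to cytochrome c, complex IV reduces oxygen, and complex V (ATP synthase) uses the proton gradient built by complexes I, III and IV. Most subunits are encoded in the nucleus, a few catalytic ones in mitochondrial DNA, and macrophages are known for shifting between respiration and glycolysis with their activation state.

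Levels are log2 intensities after quantile normalization over all features, and a difference is the NPFF mean minus the control mean, so that a difference of 0.5 is a fold of 1.41. The label was checked against marker genes. All 10 of 10 macrophage markers were measured, at percentiles 58.8 to 99.9 of mean signal over all genes, with a mean level per array of 10.65 to 10.74 in NPFF and 10.46 to 10.75 in control. Fibroblast markers lay at percentiles 18.6 to 55.9 (6 of 6 measured), lymphocyte markers at 20.2 to 33.3 (5 measured), and epithelial and endothelial markers at 10.8 to 62.7 (6 of 6). The deposited values carry no detection call, so no level was read as absent. No 2 arrays were identical.

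Control 1 stood apart from the other 5 arrays over these genes. Pearson's r across the 88 genes, which are not independent replicates, was 0.980 to 0.985 between control 1 and each other array and 0.996 to 0.999 between all other pairs of arrays. Across all genes the same ranges were 0.9649 to 0.9795 and 0.9923 to 0.9976, so control 1 stood apart there too. Control 1 held the lowest of the 6 values in 51 of the 88 genes (57.95%), against 48.87% of all genes. It held the highest value in 15 members, against 5333 of all 22180 genes. It lay more than 0.5 below the mean of the other 5 arrays in 12 members and more than 0.5 above it in 2, together 15.91% of the members against 14.93% of all genes. The control SD exceeded the NPFF SD in 80 of 88 genes, with a median SD of 0.07 in NPFF and 0.17 in control; over all genes these medians were 0.07 and 0.14. The main counts and medians, and the difference of each member named, are therefore also given without it.

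**Figure D1:**
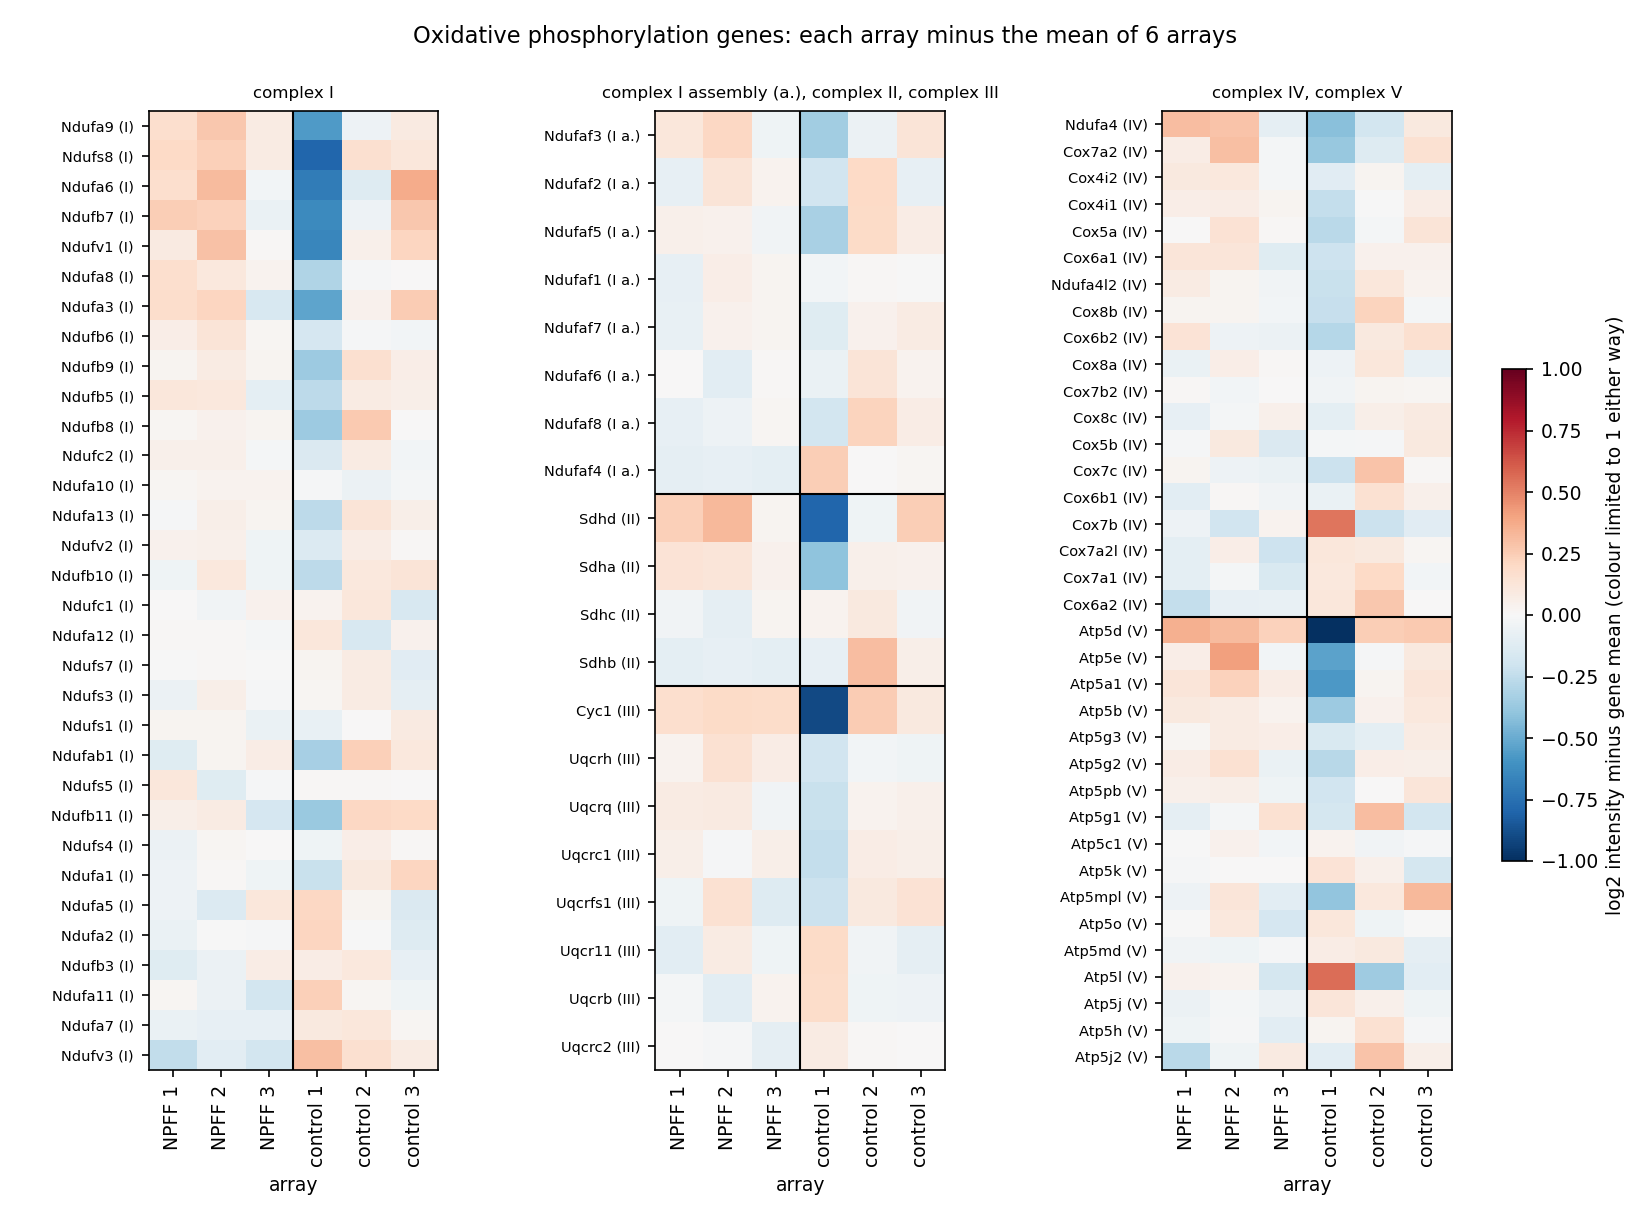
Heat map of the 88 oxidative phosphorylation genes (rows, grouped by complex and ordered by their difference) in the 3 NPFF arrays and the 3 control arrays (columns). Colour is the log2 intensity of an array minus the mean of the 6 arrays for that gene, limited to 1 either way. The deepest blue cells are in control 1, at Atp5d, Cyc1, Ndufs8 and Sdhd.

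No member of the 88 passed the test for a difference between NPFF and control. By limma with Benjamini-Hochberg adjustment over all genes, 0 members and 0 of all 22180 genes (0%) had an adjusted p under 0.05, and the smallest adjusted p was 0.9996 among the members and 0.789 over all genes. At an unadjusted p under 0.05, 4 members were called, beside 2.51% of all genes. A single member was on the higher side (background 0.834%), Uqcrh, and 3 were on the lower side (background 1.67%), Ndufv3, Cox6a2 and Ndufa7. A two-sample test without moderation gave 5 members and 724 genes at that level and 0 genes after adjustment. The count of 4 members became 8, all lower in NPFF, without control 1, where 10.81% of all genes were called in either direction. All genes also leaned lower in that setting, with 39.09% of them above 0, so the direction is not particular to the members. The count became 2 without control 2, where 2.97% of all genes were called, and 9 without control 3, where 4.22% were. Without NPFF 1, NPFF 2 and NPFF 3 it became 1, 3 and 3, beside 1.06%, 1.21% and 1.37% of all genes.

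The members were split almost evenly about 0. The difference was above 0 in 48 of 88 genes (54.55%), against 51.7% of all genes, with a median of 0.01 over the members and 0.00 over all genes. Without control 1 it was above 0 in 34 of 88 (38.64%), against 39.09% of all genes, and both medians turned negative, to -0.03 for the members and -0.02 for all genes. The sign changed in 50 members when some single array was left out, and in 32 when that array was control 1. In bulk RNA, a change in RNA per cell and a change in the make-up of the cells cannot be told apart.

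The size of difference that these arrays could have hidden is given by the intervals. The moderated SE of a member had a median of 0.10 and ranged from 0.06 to 0.44. The 95% interval of the difference lay within 0.5 either way, a fold of 1.41, in 70 of 88 members, and within 1 either way in 85. The measured difference was under 0.1 in size in 53 members and over 0.3 in 9. The features of the members were bright on these arrays, since 77 of 88 lay above the median signal of all genes, with a median percentile of 86.5.

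**Figure D2:**
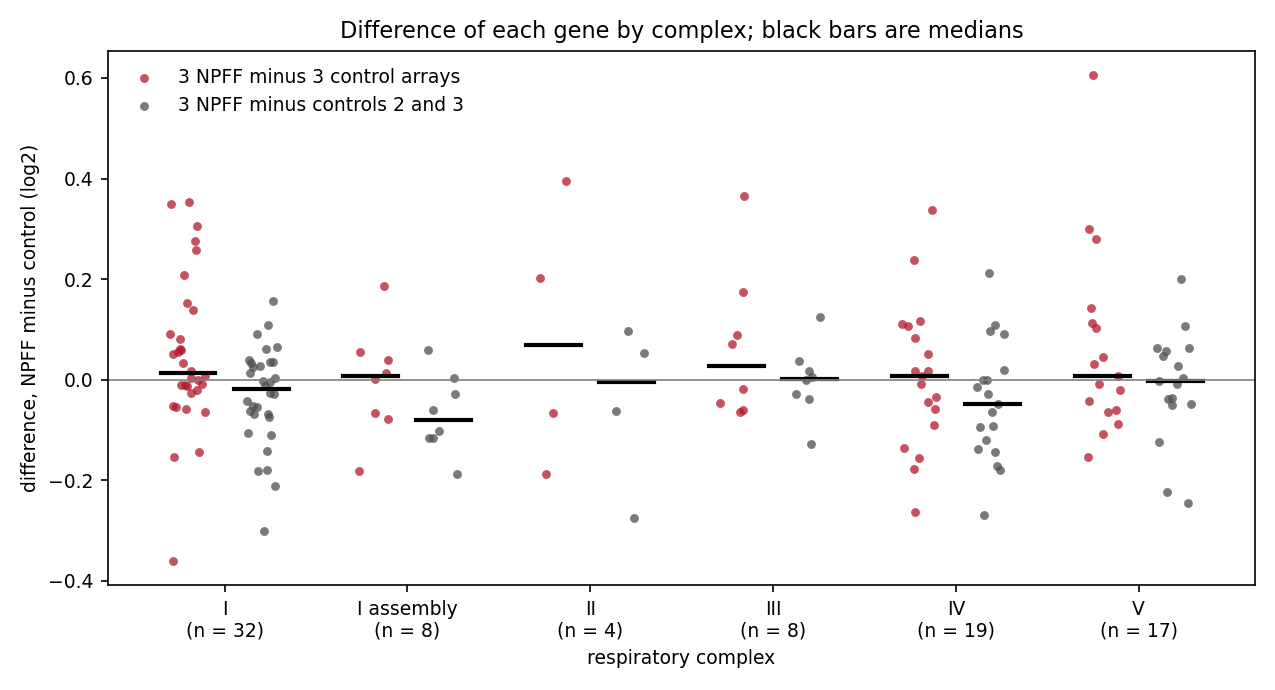
Difference of each member (NPFF minus control, log2) by complex, with all 6 arrays (red) and without control 1 (grey); black bars are medians. The red points reach 0.61, at Atp5d, while no grey point lies above 0.3. The grey medians run from -0.08 in the Ndufaf factors to 0.00 in complex III.

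Complex I, the NADH dehydrogenase, had a median difference of 0.01 over its 32 genes, 18 of them above 0. Without control 1 the median was -0.02, with 13 above 0. Its 6 measured core subunits, most of which carry the flavin or iron-sulfur clusters, had a median of 0.02 (3 above 0). The 26 accessory subunits had a median of 0.01 (15 above 0). These medians were 0.00 (2 above 0) and -0.04 (11 above 0) without control 1.

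Ndufv3, an accessory subunit of the NADH-oxidizing arm (feature 17335865), had the smallest unadjusted p of the members. Its levels were 7.25, 7.40 and 7.32 in NPFF 1 to 3, against 7.80, 7.66 and 7.58 in control 1 to 3. All NPFF arrays lay below all control arrays. The means were 7.32 ± 0.07 in NPFF and 7.68 ± 0.11 in control (SD, n = 3 each), a difference of -0.36 (SE 0.08, 95% interval -0.56 to -0.16), or 0.779-fold, with an unadjusted p of 0.00372 and an adjusted p of 0.9996 by limma. Leaving out each array in turn gave -0.41 to -0.30, and leaving out control 1 gave -0.30. Ndufa7, an accessory subunit of the matrix arm, had 7.88, 7.87 and 7.87 in NPFF, against 8.05, 8.06 and 7.97 in control. Its groups were also apart, with the NPFF arrays lower and nearly equal. The difference was -0.15 (SE 0.06; unadjusted p 0.0399, adjusted p 0.9996 by limma), and -0.14 without control 1.

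On the higher side, Ndufa8, an accessory subunit on the intermembrane face, had 9.42, 9.36 and 9.29 in NPFF, against 8.95, 9.24 and 9.25 in control. The groups did not overlap, although NPFF 3 and control 3 were close and control 1 was far below. The difference of 0.21 (SE 0.10) became 0.11 without control 1. A second, dimmer feature of Ndufa8 gave 7.46, 7.71 and 7.52 in NPFF, against 7.40, 7.50 and 7.77 in control. Those values overlapped, with a difference of 0.01 (SE 0.12), or -0.07 without control 1. Ndufb6 and Ndufa10, accessory subunits of the membrane arm, were chosen for mention after their values were seen, because their groups were apart. Ndufb6 had 9.56, 9.62 and 9.51 in NPFF, against 9.33, 9.48 and 9.47 in control, a difference of 0.14 (SE 0.07), or 0.09 without control 1. Ndufa10 had 10.96, 10.97 and 10.97 in NPFF, against 10.93, 10.88 and 10.92 in control. Its groups were apart by little, and its difference of 0.06 was no larger than its SE of 0.06 (0.07 without control 1).

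Among the core subunits of complex I, Ndufs8, an iron-sulfur subunit, had 10.45, 10.49 and 10.33 in NPFF, against 9.46, 10.41 and 10.36 in control. Only control 1 was low, and the difference of 0.35 (SE 0.25) became 0.04 without it. Ndufv1, which binds NADH and the flavin, had the same layout, with 9.98, 10.18 and 9.90 in NPFF, against 9.23, 9.94 and 10.10 in control. Its difference of 0.26 (SE 0.23) became -0.01 without control 1. Ndufs1, the largest iron-sulfur subunit, and Ndufs7, which holds the last cluster before coenzyme Q, had differences of -0.01 (SE 0.07) and 0.00 (SE 0.07), or -0.05 and 0.01 without control 1. Their 95% intervals were -0.18 to 0.16 and -0.17 to 0.17, and in both the groups overlapped. Ndufs7 lay at percentile 99.9 of signal. NPFF 1 and NPFF 3 had the same value there, 13.15, since quantile normalization gives equal ranks equal values. Ndufab1, the mitochondrial acyl carrier protein that also sits in complex I, had a difference of -0.01 (SE 0.15), or -0.18 without control 1.

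The 8 Ndufaf assembly factors, which help build complex I and are not part of the finished enzyme, had a median difference of 0.01, with 5 above 0. Without control 1 the median was -0.08, with 2 above 0. Ndufaf4, which acts early in the assembly of the matrix arm, had 8.72, 8.72 and 8.71 in NPFF, against 9.06, 8.81 and 8.83 in control. The NPFF arrays were nearly equal and lay below all control arrays, with control 1 the highest. The means were 8.72 ± 0.0041 in NPFF and 8.90 ± 0.14 in control (SD, n = 3 each), a difference of -0.18 (SE 0.08; unadjusted p 0.0690, adjusted p 0.9996 by limma), and -0.10 without control 1. Ndufaf3, which acts with Ndufaf4, lay the other way, with 9.73, 9.82 and 9.57 in NPFF, against 9.26, 9.55 and 9.74 in control. Its groups overlapped, and the difference of 0.19 (SE 0.13) became 0.06 without control 1. Ndufaf6, another assembly factor, had a difference of -0.07 (SE 0.08), or -0.12 without control 1, and its groups overlapped.

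Complex II, succinate dehydrogenase, was measured through all 4 of its genes and had a median difference of 0.07, or 0.00 without control 1, with 2 genes above 0 either way. Sdha, the flavoprotein that oxidizes succinate, had 10.37, 10.36 and 10.28 in NPFF, against 9.84, 10.29 and 10.28 in control. Control 1 was the single low array, and the difference of 0.20 (SE 0.13) became 0.05 without it. Sdhb, the iron-sulfur subunit, had 9.04, 9.07 and 9.04 in NPFF, against 9.06, 9.45 and 9.20 in control. Control 2 was the highest array and control 1 lay among the NPFF arrays, and the difference of -0.19 (SE 0.10) became -0.28 without control 1. Sdhd, a membrane anchor, had 9.98, 10.06 and 9.77 in NPFF, against 8.95, 9.70 and 9.98 in control, and its difference of 0.39 (SE 0.26) became 0.10 without control 1. The other anchor, Sdhc, had a difference of -0.07 (SE 0.07), or -0.06 without control 1, and its groups overlapped. Within complex II, then, Sdha and Sdhd lay above 0 and Sdhb and Sdhc below it, each with an adjusted p of 0.9996 by limma.

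Complex III, the cytochrome bc1 complex, had a median difference of 0.03 over 8 genes, 4 above 0, and 0.00 without control 1, again 4 above 0. Control 1 was the lowest array in 5 of these genes and the highest in the other 3. Uqcrh, the hinge protein that helps dock cytochrome c (feature 17428545), had 9.16, 9.27 and 9.20 in NPFF, against 8.93, 9.09 and 9.08 in control. All NPFF arrays lay above all control arrays. The means were 9.21 ± 0.06 in NPFF and 9.03 ± 0.09 in control (SD, n = 3 each), a difference of 0.18 (SE 0.07), or 1.13-fold, with an unadjusted p of 0.04997 and an adjusted p of 0.9996 by limma. Without control 1 the difference was 0.12, and leaving out each array in turn gave 0.12 to 0.20.

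Cyc1, cytochrome c1, had 10.85, 10.87 and 10.87 in NPFF, against 9.78, 10.93 and 10.78 in control. Control 2 lay above all NPFF arrays and control 1 minus the mean of the other 5 arrays was -1.08. The difference of 0.36 (SE 0.29) became 0.0049 without control 1. Uqcrfs1, the Rieske iron-sulfur protein, had a difference of -0.02 (SE 0.12), or -0.13 without control 1. The core proteins Uqcrc1 and Uqcrc2 had differences of 0.07 (SE 0.10) and -0.06 (SE 0.06), or -0.03 and -0.04 without control 1. In these 3 genes the 95% intervals over all arrays included 0.

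Complex IV, cytochrome c oxidase, had a median difference of 0.01 over 19 genes, 10 above 0, and -0.05 without control 1, with 5 above 0. Its 10 widely expressed subunits had a median of 0.05, with 6 above 0, and 0.00 without control 1, with 4 above 0. Ndufa4, the subunit first assigned to complex I, had 9.42, 9.40 and 9.03 in NPFF, against 8.70, 8.93 and 9.22 in control. NPFF 3 lay below control 3, so the groups overlapped, and the difference of 0.34 (SE 0.16) became 0.21 without control 1. Cox7a2 had a difference of 0.24 (SE 0.15), Cox4i1 of 0.11 (SE 0.09) and Cox5a of 0.11 (SE 0.11), and without control 1 these were 0.11, 0.02 and 0.00. Cox6a1 had a difference of 0.08 (SE 0.11) and Cox5b one of -0.04 (SE 0.08), or 0.00 and -0.06 without control 1. Cox7a2l, which helps join complexes III and IV into a supercomplex, had 7.60, 7.77 and 7.50 in NPFF, against 7.82, 7.80 and 7.72 in control. Its groups overlapped through NPFF 2, with a difference of -0.16 (SE 0.09), or -0.14 without control 1.

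Of the complex IV members, 8 are isoforms known as restricted to certain tissues, such as heart and skeletal muscle (Cox6a2, Cox7a1, Cox8b), lung (Cox4i2) or testis (Cox6b2, Cox7b2, Cox8c). Their differences had a median of 0.00, with 4 of 8 above 0, and of -0.09 without control 1, with 1 of 8 above 0. The feature of Cox6a2 was bright for such an isoform, at percentile 94.9955 of signal. The median percentile was 30.66 in the 8 isoforms and 93.78 in the 10 widely expressed subunits. Why its signal was high in this macrophage line was not tested. Cox6a2 had 9.94, 10.09 and 10.10 in NPFF, against 10.29, 10.45 and 10.18 in control. All NPFF arrays lay below all control arrays, with control 3 the nearest. The means were 10.04 ± 0.09 in NPFF and 10.31 ± 0.13 in control (SD, n = 3 each), a difference of -0.26 (SE 0.09), or 0.834-fold, with an unadjusted p of 0.0262 and an adjusted p of 0.9996 by limma. It was -0.27 without control 1 and between -0.32 and -0.19 over the 6 single arrays left out.

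Cox7a1, another isoform of heart and skeletal muscle, had 7.39, 7.47 and 7.34 in NPFF, against 7.59, 7.68 and 7.46 in control. NPFF 2 lay just above control 3, so the groups overlapped, and the difference was -0.18 (SE 0.08), or -0.17 without control 1. Cox4i2 had a difference of 0.12 (SE 0.07), or 0.09 without control 1. The other 5 isoforms, Ndufa4l2, Cox8b, Cox6b2, Cox7b2 and Cox8c, had differences between -0.03 and 0.05, and between -0.12 and -0.03 without control 1.

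Complex V had a median difference of 0.01 over 17 genes, 9 above 0, and 0.00 without control 1, with 8 above 0. By structural part, the 5 genes of the catalytic head and central stalk had a median of 0.28 and were all above 0, and the 3 c-ring genes had a median of 0.10 and were all above 0. Of the 4 peripheral stalk genes 1 was above 0 (median -0.07), and of the 5 membrane subunit genes none was (median -0.06). The head and central stalk (0.01 to 0.61) and the c ring (0.03 to 0.11) lay above the membrane subunits (-0.15 to -0.01). The range of the peripheral stalk (-0.11 to 0.04) overlapped those of all other parts. No test compared the parts. Without control 1 the head and central stalk median was 0.05 (4 of 5 above 0), that of the c ring -0.01 (1 of 3), that of the peripheral stalk -0.04 (1 of 4) and that of the membrane subunits -0.04 (2 of 5).

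Atp5d, the delta subunit of the central stalk (feature 17235198), had 12.06, 12.03 and 11.94 in NPFF, against 10.29, 11.96 and 11.97 in control. Control 1 minus the mean of the other 5 arrays was -1.70, the largest such gap among the members, and NPFF 3 lay below controls 2 and 3. The means were 12.01 ± 0.06 in NPFF and 11.40 ± 0.97 in control (SD, n = 3 each), and the difference of 0.61 (SE 0.44) became 0.05 without control 1. A second feature of Atp5d had 11.15, 11.14 and 10.63 in NPFF, against 8.13, 10.91 and 11.40 in control, so control 1 was low on both. The difference there was 0.83 (SE 0.85), or -0.18 without control 1.

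Atp5a1 and Atp5b, the alpha and beta subunits that form the catalytic head, had differences of 0.28 (SE 0.18) and 0.14 (SE 0.13). Without control 1, which was the lowest array for both, these were 0.06 and 0.00. Atp5c1, the gamma subunit that turns inside the head, had 7.43, 7.47 and 7.40 in NPFF, against 7.47, 7.40 and 7.42 in control. Its groups overlapped fully, with a difference of 0.01 (SE 0.06, 95% interval -0.14 to 0.15), or 0.03 without control 1. Atp5e, the epsilon subunit, had a difference of 0.30 (SE 0.19), or 0.11 without control 1, while its second, dimmer feature had one of 0.00 (SE 0.06), or -0.03 without control 1. The c-ring genes Atp5g1, Atp5g2 and Atp5g3, which encode the same mature protein, had differences of 0.03 (SE 0.15), 0.10 (SE 0.11) and 0.11 (SE 0.08). Without control 1 these were -0.05, -0.01 and 0.06. Atp5h, a peripheral stalk subunit, had 11.34, 11.37 and 11.27 in NPFF, against 11.41, 11.53 and 11.37 in control. NPFF 2 and control 3 lay side by side, and the difference was -0.11 (SE 0.07), or -0.12 without control 1.

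Control 1 was not low throughout. Atp5l, a membrane subunit of complex V, and Cox7b, a subunit of complex IV, were chosen for mention after their values were seen, because control 1 was high on them. Atp5l had 8.82, 8.80 and 8.59 in NPFF, against 9.33, 8.41 and 8.66 in control, and its difference of -0.06 (SE 0.23) became 0.20 without control 1. Cox7b had 12.21, 12.08 and 12.30 in NPFF, against 12.80, 12.05 and 12.15 in control, and its difference of -0.14 (SE 0.20) became 0.10. On a second, dimmer feature of Cox7b control 1 was the lowest array instead, with 6.51, 6.93 and 6.60 in NPFF, against 5.81, 6.97 and 6.59 in control. For 9 members with a second feature, the signs of the 2 differences were opposite in 6 (Atp5e, Atp5h, Cox5b, Cox7b, Ndufa11 and Ndufa12) and the same in 3 (Atp5d, Atp5g2 and Ndufa8). Without control 1 they were also opposite in 6, which were then Atp5d, Atp5e, Atp5g2, Cox5b, Cox7b and Ndufa8.

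**Figure D3:**
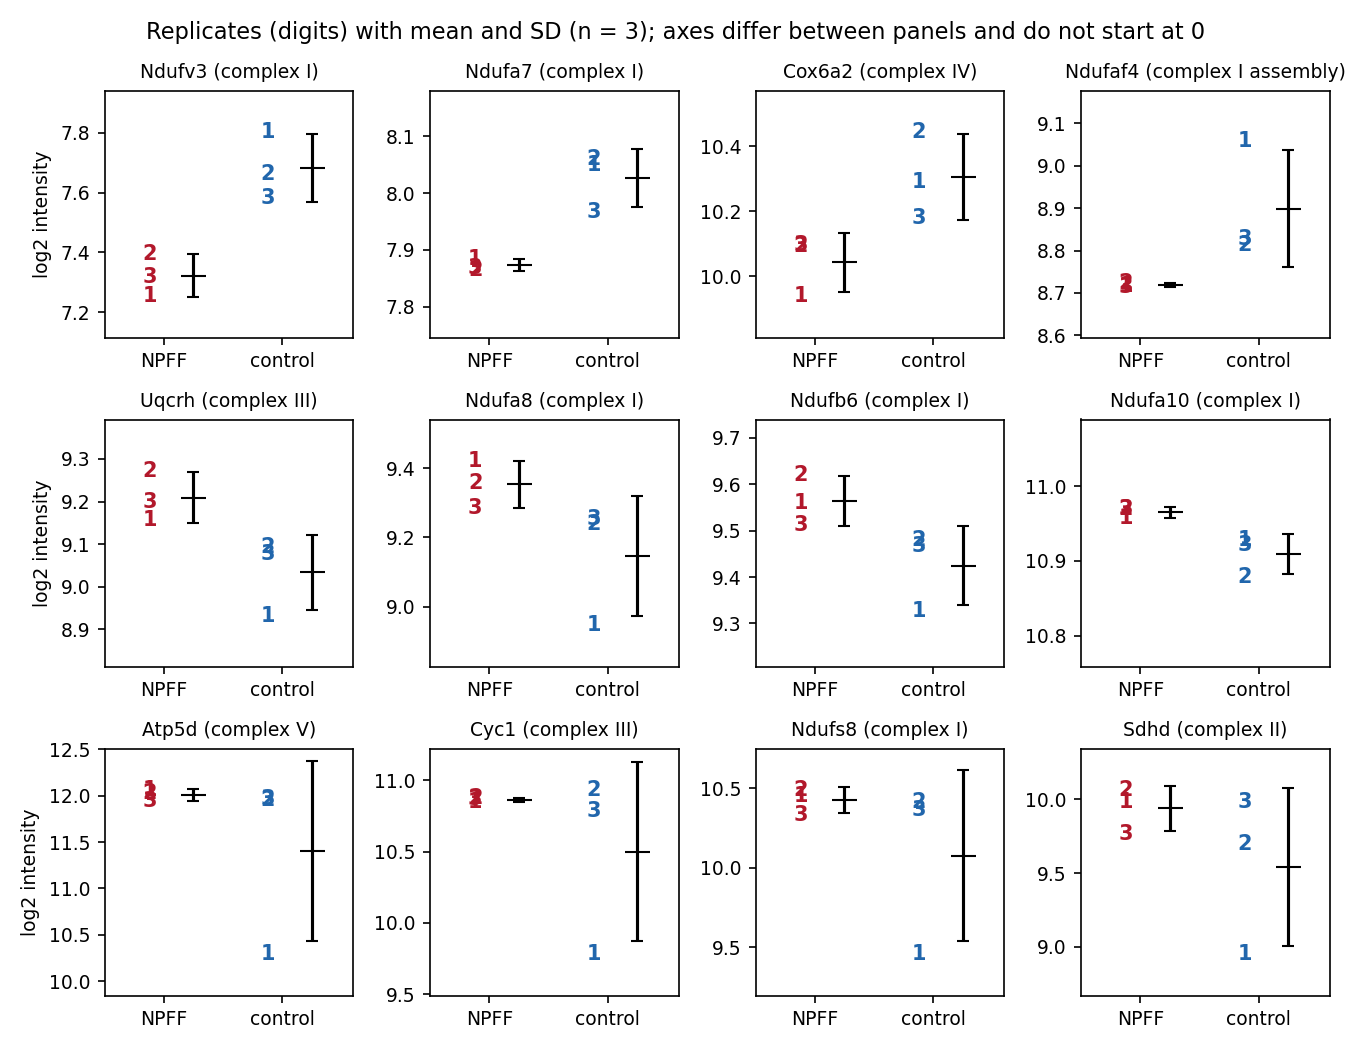
Log2 intensity of 12 members in the 3 NPFF and the 3 control arrays; each digit is the replicate of that number, and the black marks are the mean and SD (n = 3). In the upper 8 panels the groups do not overlap, and in the lower 4 control 1 lies far below the other arrays, at 10.29 for Atp5d against 11.94 to 12.06 in NPFF.

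The groups did not overlap in 8 of the 88 members, beside 8.58% of all genes. The NPFF arrays were all higher in 4 (background 3.67%), which were Uqcrh, Ndufa8, Ndufb6 and Ndufa10, and all lower in 4 (background 4.92%), which were Ndufv3, Ndufa7, Cox6a2 and Ndufaf4. These counts are near the background. With 1 array left out fewer arrays have to separate, and without control 1 the counts higher and lower were 4 and 15, beside 8.97% and 18.3% of all genes. Without control 2 they were 11 and 5, beside 11.85% and 7.43% of all genes, and without control 3 they were 14 and 15, beside 8.21% and 10.55%. Without NPFF 1 they were 5 and 7, beside 6.52% and 7.16%, without NPFF 2 they were 4 and 9, beside 5.52% and 8.12%, and without NPFF 3 they were 14 and 5, beside 7.87% and 8.45%.

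The promoters of 4 of these 8 genes are shown because they hold both directions and 3 kinds of promoter: with the binding motif of NRF1, with that of ETS factors such as GABPA, and with none of those searched. NRF1, GABPA and YY1 are transcription factors known for driving nuclear genes of the respiratory chain. Each sequence runs 5′ to 3′ on the strand of the gene, from 250 bases before to 50 bases after its start, from RefSeq on build GRCm38.p6, and capitals mark the motif match.
Ndufv3 (chr17:31519865-31520164, plus strand, lower in NPFF): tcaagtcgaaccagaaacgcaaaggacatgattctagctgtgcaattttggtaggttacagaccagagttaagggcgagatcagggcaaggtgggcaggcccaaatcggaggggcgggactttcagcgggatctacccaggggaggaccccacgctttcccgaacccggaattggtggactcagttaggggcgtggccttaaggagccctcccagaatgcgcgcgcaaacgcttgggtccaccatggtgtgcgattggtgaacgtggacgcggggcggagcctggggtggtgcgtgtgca
Ndufaf4 (chr4:24897833-24898132, plus strand, lower in NPFF): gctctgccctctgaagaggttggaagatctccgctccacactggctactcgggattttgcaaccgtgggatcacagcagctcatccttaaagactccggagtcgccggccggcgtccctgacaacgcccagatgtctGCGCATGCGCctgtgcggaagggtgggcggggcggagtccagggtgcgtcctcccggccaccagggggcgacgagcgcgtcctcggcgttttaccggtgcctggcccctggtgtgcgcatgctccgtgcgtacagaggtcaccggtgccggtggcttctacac
Ndufa8 (chr2:36049289-36049588, minus strand, higher in NPFF): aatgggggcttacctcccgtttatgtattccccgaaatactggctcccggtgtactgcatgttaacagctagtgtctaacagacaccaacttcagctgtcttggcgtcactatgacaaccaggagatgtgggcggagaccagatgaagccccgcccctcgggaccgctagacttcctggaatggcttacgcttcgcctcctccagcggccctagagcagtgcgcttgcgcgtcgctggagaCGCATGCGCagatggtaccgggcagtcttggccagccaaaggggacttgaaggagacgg
Uqcrh (chr4:116075021-116075320, minus strand, higher in NPFF): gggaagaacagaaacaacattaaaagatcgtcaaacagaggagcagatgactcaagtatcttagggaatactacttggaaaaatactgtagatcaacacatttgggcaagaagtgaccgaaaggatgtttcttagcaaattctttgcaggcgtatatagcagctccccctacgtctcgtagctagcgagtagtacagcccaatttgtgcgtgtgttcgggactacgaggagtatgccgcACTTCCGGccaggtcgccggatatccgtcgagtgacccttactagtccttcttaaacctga

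The NRF1, ETS and YY1 motifs were searched on both strands, in the 77 RefSeq promoters of the 72 members that the table held. The NRF1 motif, GCGCATGCG, was in 10 of 77 (12.99%), beside 1.75% of all 32851 promoters of the same length. The ETS motif, CCGGAAGT, was in 5 (6.49%), beside 3.89% of all, and the YY1 motif, AAGATGGCG, was in 7 (9.09%), beside 1.40% of all. Over the 20611 promoters of the genes measured here, the shares were 2.41% for NRF1, 5.11% for ETS and 1.85% for YY1. The NRF1 motif is nearly its own reverse complement, so matches on the 2 strands can overlap, as they do in Ndufaf4. The 10 genes with an NRF1 match lay on both sides of 0, with 5 higher and 5 lower in NPFF and a median difference of 0.02, against 0.01 in the 62 without it, and of 0.00 against -0.03 without control 1. Of the 5 genes with an ETS match, 2 were higher and 3 lower, with a median of -0.01, or 0.00 without control 1. Of the 7 with a YY1 match, 2 were higher and 5 lower, with a median of -0.03, or -0.05 without control 1. In the shown sequences, the 2 with an NRF1 match, Ndufa8 and Ndufaf4, lay in opposite directions. A match describes these letters in this window and says nothing of a factor's binding.

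The complexes were also set beside one another array by array, as the median over genes of an array minus the control mean. For complex I this was 0.03, 0.06 and 0.00 in NPFF 1 to 3, against -0.12, 0.08 and 0.04 in control 1 to 3. For complex V it was 0.00, 0.08 and -0.01 in NPFF, against -0.16, 0.09 and -0.01 in control. For complex II, which has the fewest genes, it was 0.08, 0.05 and 0.07 in NPFF, against -0.24, 0.15 and 0.05 in control. In all 5 complexes and in the Ndufaf factors control 1 was the lowest of the 6 arrays, at -0.24 to -0.12, beside -0.07 over all genes. Control 2 lay above 0 in each of them, at 0.07 to 0.15, beside 0.06 over all genes. The NPFF arrays lay between -0.06 and 0.09, inside the span from control 1 to control 2 in complexes I, II, IV and V and in the Ndufaf factors, while NPFF 2 in complex III, at 0.09, passed control 2, at 0.07.

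**Figure D4:**
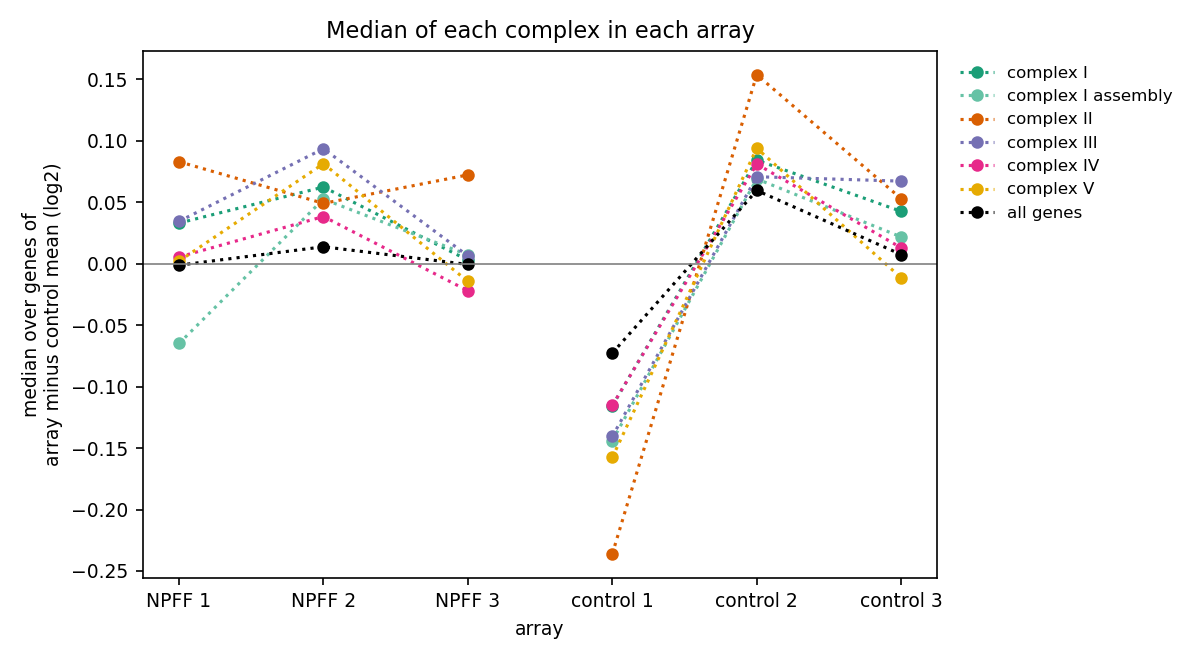
Median over the genes of each complex of an array minus the control mean (log2), for the 3 NPFF and the 3 control arrays; dotted lines only join the points of a complex within a group. Control 1 is the lowest point of every complex, at -0.24 for complex II, and all genes (black) show it at -0.07.

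Genes that work beside these members were read from lists. The mitochondrially encoded subunits, the catalytic partners of complexes I, III and IV, were measured in 10 of 13 (COX2, ATP6 and ATP8 were not). None had an unadjusted p under 0.05, 2 were higher and 8 lower in NPFF, and the median difference was -0.02, or 0.04 without control 1, with 9 of 10 then higher. These genes lay at percentiles 80.6 to 99.996 of signal, with a median of 99.97. Quantile normalization gives equal ranks equal values, so a gene that keeps its rank at this end shows no difference. ND1 had 13.60 in all 3 NPFF arrays and in control 3. These small differences are therefore weak evidence on the RNA levels. In this list control 1 was the highest array in 8 of 10 genes and the lowest in 1. In the 88 nuclear members it was the highest in 15 and the lowest in 51. Over all 22180 genes it was the highest in 5333 and the lowest in 10839. ND6, a complex I subunit, was chosen for mention after its values were seen, for the widest control spread of the list, and had 8.46, 8.60 and 8.57 in NPFF, against 9.501, 8.001 and 8.60 in control. Its difference of -0.16 (SE 0.35) became 0.24 without control 1. As deposited, control 1 had the narrowest interquartile range of the 6 arrays, 2.04 against 2.31 to 2.41, and the part of this in its positions was not tested.

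Assembly factors outside the Nduf names were measured in 38 of 41 (Sco2, Cox11 and Pet117 were not), with 25 higher and 13 lower in NPFF and 12 higher without control 1. By limma 0 passed the adjusted threshold. At an unadjusted p under 0.05, 3 of 38 were called, all lower, beside 2.51% of all genes in either direction and 1.67% lower. Lyrm7, which matures the Rieske protein of complex III, had 7.59, 7.71 and 7.89 in NPFF, against 8.14, 8.23 and 8.02 in control, a difference of -0.41 (SE 0.10), or -0.40 without control 1. Bcs1l, which inserts that protein, had 7.95, 7.96 and 7.81 in NPFF, against 8.04, 8.12 and 8.18 in control, a difference of -0.21 (SE 0.07), or -0.24 without control 1. Coa6, a copper-site factor of complex IV, had 7.15, 7.14 and 6.97 in NPFF, against 7.49, 7.29 and 7.38 in control, a difference of -0.30 (SE 0.08), or -0.25 without control 1. The groups did not overlap in 6 of the 38, beside 8.58% of all genes. They were lower in these 3 and in Cox16, at -0.18 (SE 0.09), and higher in Coa5, at 0.37 (SE 0.21), and Cox10, at 0.20 (SE 0.13). Cox16, Coa5 and Cox10 were named after their values were seen, and without control 1 their differences were -0.09, 0.12 and 0.06.

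Electron carriers and coenzyme Q synthesis genes were measured in 16 of 17 (Pdss1 was not), with 11 higher and 5 lower, and 5 higher without control 1. None had an unadjusted p under 0.05. The members of this list with the smallest p were Pdss2, at -0.13 (SE 0.08), Coq10a, at -0.13 (SE 0.08), and Coq9, at 0.12 (SE 0.09), or -0.18, -0.11 and 0.07 without control 1. Regulators of mitochondrial gene expression were measured in 15 of 15, with 8 higher and 7 lower, and 9 higher without control 1, none at an unadjusted p under 0.05. Tfb2m, a mitochondrial transcription factor, had 8.80, 8.94 and 8.70 in NPFF, against 9.18, 8.94 and 8.99 in control, a difference of -0.22 (SE 0.10), or -0.15 without control 1. Nrf1, the factor whose motif was searched, had 8.26, 8.18 and 8.02 in NPFF, against 7.81, 8.03 and 8.05 in control, a difference of 0.19 (SE 0.10), or 0.11 without control 1. Ppargc1b, a coactivator of mitochondrial biogenesis, had a difference of 0.23 (SE 0.12), or 0.10 without control 1. In these 3 the groups overlapped. The groups did not overlap in 2 of the 15, both lower, beside 4.92% of all genes. They were Tfb1m, at -0.08 (SE 0.06), and Ppargc1a, at -0.05 (SE 0.06), named after their values were seen, and without control 1 they were at -0.06 for both. Ppargc1a lay at percentile 5.93 of signal, and without detection calls its level cannot be told from background.

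Some genes of the complexes could not be read alone. Cox6c, Ndufb2, Ndufb4, Ndufs6 and Uqcr10 were on features that share a symbol with another gene or copy, and they are no members. Their 7 features had differences between -0.13 and 0.37, or between -0.23 and 0.14 without control 1. Those of Ndufs6 were singled out after their values were seen. One of the 2 features shared by Ndufs6, a zinc-binding subunit of complex I, and its copy Ndufs6b had 8.13, 8.17 and 8.14 in NPFF, against 7.77, 7.98 and 8.02 in control. The groups did not overlap there, with a difference of 0.22 (SE 0.08), or 0.14 without control 1. Their other feature had 9.79, 10.03 and 9.82 in NPFF, against 8.95, 9.76 and 9.81 in control. Control 1 was far below the rest there, and the difference of 0.37 (SE 0.24) became 0.09 without it. Uqcr10 had -0.13 (SE 0.14), Ndufb4 -0.09 (SE 0.07) and Ndufb2 0.04 (SE 0.10), and the 2 features of Cox6c had 0.06 (SE 0.07) and 0.13 (SE 0.17). Atpif1, the inhibitor of ATP synthase, is outside the naming rule and had 11.11 ± 0.03 in NPFF and 11.09 ± 0.05 in control (SD, n = 3 each), a difference of 0.01 (SE 0.06), or 0.03 without control 1.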

How the data were processed

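The deposited table holds log2 intensities per array feature, a unit read here from its values (4.59 to 14), since the authors' background correction, summarization, normalization and genome build were not given in the sources used here. Of 33794 features, a platform annotation pairs 23521 with 1 symbol, 1814 with several and 8459 with none. Quantile normalization over all features was applied, because the deposited arrays differed in distribution by up to 0.17. The feature with the highest mean stood for a gene. limma (version 3.58.1, R 4.3.3) was fitted on group alone over 22180 genes, with 4 residual and 2.49 prior degrees of freedom, two-sided, with p-values adjusted by Benjamini-Hochberg over those genes and a threshold of 0.05; the script was tested on simulated data. SE and 95% intervals are those of the moderated fit. Arrays have no counting depth, and 3 per group limit the precision. Members, lists and tests were chosen with earlier results of these data known. Genes named are the 3 of smallest unadjusted p in each complex (4 in complex II) and of each pathway list, the 3 with the largest control SD, and genes set by role; others are said to be chosen after their values were seen. Alternatives were other normalizations, the mean over features, leaving out dim genes, array weights, a replicate block and single arrays left out. The annotation names mitochondrial genes without the mt prefix, and they were matched by those names.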

Additional observations from a re-analysis of the deposited data

How the results depend on the processing

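The count of members past the adjusted threshold was 0 in every alternative run, by limma with Benjamini-Hochberg adjustment. The count at an unadjusted p under 0.05, which was 4, became 2 with median centring (1.67% of all genes), 2 with genes under percentile 25 of signal left out (2.61%), 7 with gene-by-gene array weights (8.41%) and 1 to 9 with single arrays left out (1.06% to 10.81%). The 4 members that were higher without overlap became 0 with the values as deposited (2.57% of all genes), 0 with median centring (1.65%), 4 to 14 with single arrays left out (5.52% to 11.85%), and 19 with control 3 as the only control (22.8%), a setting chosen after seeing the data. The 4 that were lower became 7 with cyclic loess (5.01%), 5 to 15 with single arrays left out (7.16% to 18.3%) and 27 with control 3 alone (26.84%). Fewer arrays have to separate in the settings that leave arrays out; otherwise the cause was not tested. No median of a complex moved by more than the spread between replicates, but that spread includes control 1 and is widened by it. Some medians still changed sign without control 1, such as complex I (0.01 to -0.02) and complex IV (0.01 to -0.05). Of 569 values of 44 named genes under alternatives, 0 moved by more than the gene's own spread, and 42 changed sign, in 18 genes. That 0 says little, since the spread of a gene also includes control 1. Leaving out 1 of 3 arrays cannot move a difference by more than it, and the replicate block and the dim-gene setting leave a difference unchanged. Atp5d, at 0.61 with all arrays and 0.05 without control 1, counted as not moved.

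Whether replicate numbers pair the samples could not be settled. Over all genes, same-numbered arrays deviated from their group means with correlations of 0.23, 0.45 and -0.33. These 3 values are not independent of one another, and control 1 stands apart from the other arrays. With the replicate block, 2 members (beside 1.79% of all genes) had an unadjusted p under 0.05 and 0 an adjusted one. Arrays carry no depth, and without detection calls the dimmest isoforms, such as Cox7b2 at percentile 2.03, cannot be told from background.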
